A study of Sus scrofa with 23 samples.

Results

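The transcripts described here were those with high expression in the trophectoderm (TE) of in vivo fertilized porcine blastocysts, lower expression in the part of the blastocyst that holds the inner cell mass (ICM), and low expression at the 8-cell stage. They were chosen from the in vivo values by 3 limits on FPKM, the fragments counted on a gene after scaling for its length and for how deeply the library was sequenced. The limits were an FPKM value of at least 10 in TE, a TE value at least 3 times that of the ICM part, and a value under 10 in 8-cell embryos. Of the 8603 genes in the table, 150 met all limits, and 125 of these members have a gene symbol. Their TE, ICM-part and 8-cell values in the in vivo embryos are therefore a description of how they were chosen. The cloned embryos had no part in the choice.

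The data covered 23 libraries, 1 for each stage or blastocyst part in 3 groups. The in vivo group (IV-D, 8 libraries) consisted of Duroc MII oocytes and Duroc embryos sired by a single boar, so the embryos were paternal half-sibs, flushed from sows without culture. Ear fibroblast nuclei of that same Duroc boar gave the Duroc clones (NT-D), and those of a Laiwu boar gave the Laiwu clones (NT-LW). The nuclei were moved into enucleated oocytes of hybrid sows, matured in vitro from slaughterhouse ovaries. The clones were then cultured in PZM3 medium under low oxygen. Clone embryos were all male, whereas IV-D pools mixed male and female embryos, so sex and group cannot be told apart. Each clone group thus rests on 1 donor cell line, and its samples were pools of embryos. The recipient oocytes (the NT-D oocyte library) serve as starting point for both kinds of clones, with 8 libraries for NT-D in all and 7 for NT-LW. Blastocysts were cut by hand with a knife into a part that held ICM together with TE, called IT, and a part of TE alone. Each condition has a single library, so no value carries a replicate error and differences between conditions could not be tested. Intervals are exact binomial 95% intervals on recovered fragments and cover counting error only, since amplified reads carry no molecular identifiers.

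The trophectoderm is the outer epithelium of the blastocyst. It pumps fluid into the cavity, takes up and processes nutrients for the embryo, and later forms the chorion of the placenta, while the ICM forms the embryo proper. In the pig this layer stays free in the uterus for days and elongates before it attaches, so its transport and metabolic genes are in use long before there is a placenta.

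The label was checked against transcription factors that specify the lineage. Of the 23 trophectoderm transcription factors listed, 11 were in the table and 0 were members. Only GATA3 of these 11 was higher in TE than in IT of IV-D embryos by more than 1 on the log2(FPKM + 1) scale, with FPKM values of 14.0 in TE and 5.42 in IT, and the median of the list was -0.13. The list of ICM and epiblast genes, by contrast, separated the cut parts in all groups, with a median difference TE minus IT of -2.70 in IV-D, -1.26 in NT-D and -1.56 in NT-LW blastocysts over 10 genes. NANOG, a pluripotency factor, was listed at 0 in all 3 TE libraries and had FPKM values of 9.80, 5.00 and 3.76 in the IT libraries of IV-D, NT-D and NT-LW. The name trophectoderm-enriched thus describes where the members were high in IV-D blastocysts, and not a set of lineage factors.

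The word late also needs a limit. In IV-D embryos 107 members stayed under 10 at each stage before the 8-cell stage, but 43 had reached 10 or more in oocytes or cleaving embryos. PSPH, the last enzyme of serine synthesis, stood at 1467 FPKM in IV-D oocytes, 1.54 at the 8-cell stage and 155 in TE. UCHL1, a ubiquitin hydrolase that is abundant in oocytes, had 447 in IV-D oocytes, 2.32 at the 8-cell stage and 215 in TE. Of these 43 members 34 had 10 FPKM or more in the IV-D oocyte, and the others reached it at a later stage before the 8-cell stage, such as FCER1G with 0.00 in the oocyte and 37.0 in the 2-cell library. Their low 8-cell and high TE values follow from the choice of members.

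The main result lies in the clones. A gene was counted as higher or lower between 2 libraries when their log2(FPKM + 1) values lay more than 1 apart and the larger FPKM value was 1 or above. By this rule all 150 members were higher in TE than in IT of IV-D embryos, as the choice of members fixes (8.10% of all genes in the table were), and the median of the FPKM ratios TE over IT was 5.53. In NT-D blastocysts 3 of 150 members (2.0%) were higher in TE, against 0.302% of all genes, and 4 were lower, against 3.39%, while 143 were within the fold. In NT-LW blastocysts 6 members (4.0%) were higher in TE, against 0.930% of all genes, and 15 (10%) were lower, against 4.01%. The median ratio TE over IT came to 1.16 for NT-D and 0.893 for NT-LW embryos. In both clone groups together 128 members were within the fold in each, 1 was higher in both and 3 were lower in both. These joint counts were not made over all genes. Within the fold were 143 members in NT-D and 129 in NT-LW, and 8285 and 8178 of all 8603 genes. A value within the fold in clones was thus common in the table and not particular to the members.

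**Figure D1:**
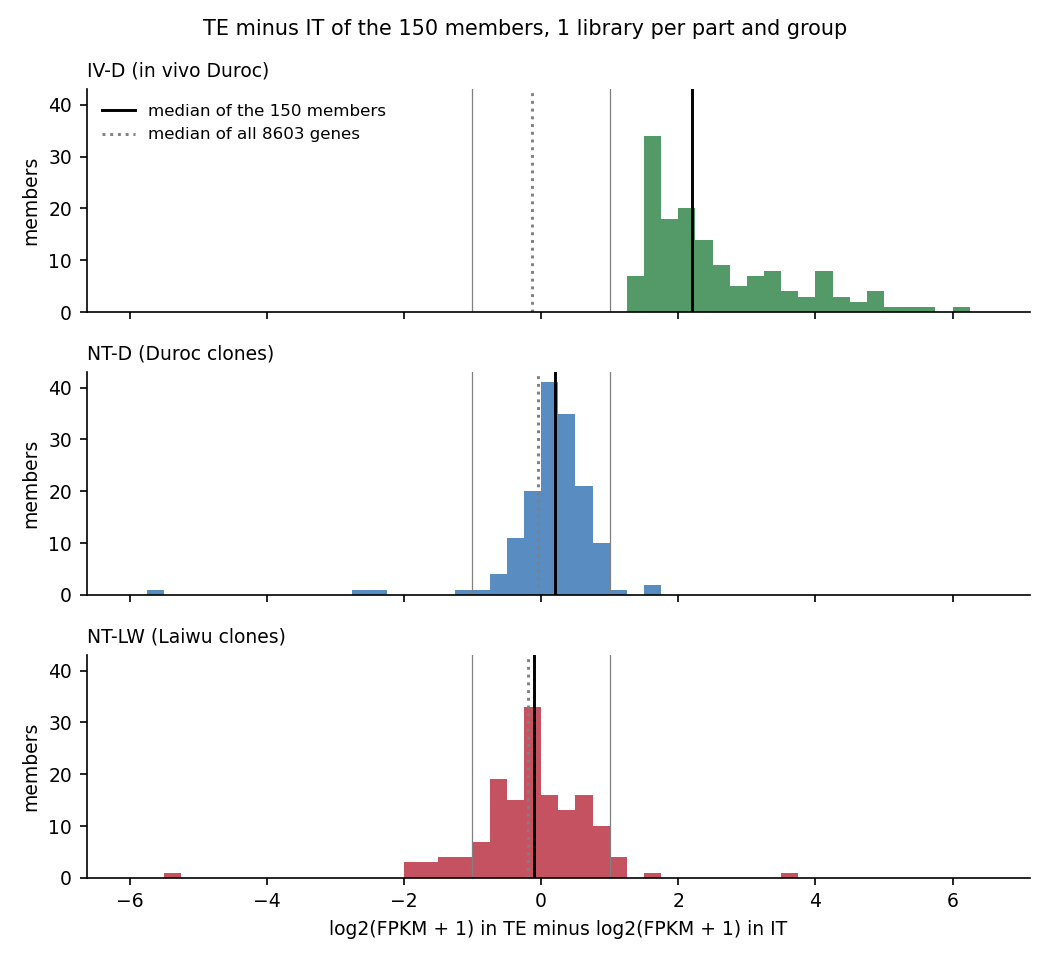
Distribution of the 150 members by log2(FPKM + 1) in TE minus log2(FPKM + 1) in IT, one panel per group. The vertical axis counts members, the solid line is their median, the dotted line the median of all 8603 genes, and the thin lines mark a difference of 1 in each direction. The IV-D members lie above 1 because they were chosen that way, and most clone members lie between -1 and 1.

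Small differences are affected by how libraries are scaled. The median of TE minus IT over all genes of the table was -0.13 in IV-D, -0.04 in NT-D and -0.19 in NT-LW on the log2(FPKM + 1) scale. The median over the members was 2.19, 0.20 and -0.11 in the same order. With median-ratio scaling of the libraries it was 2.31 and 0.27 in IV-D and NT-D, and in NT-LW it changed sign to 0.11. In NT-LW 16 members were then higher and 12 lower in TE, in place of 6 and 15. Of all 8603 genes 216 were then higher and 205 lower, in place of 80 and 345. The direction of the small shift in NT-LW embryos is therefore not settled by these data, while the absence of a large one did not depend on the scaling.

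The level that set the clones apart was that of IT. The median FPKM value of the members was 3.72 in IV-D IT, 13.8 in NT-D IT and 12.6 in NT-LW IT, and 23.8, 15.6 and 10.5 in the TE of the same groups. Of 150 members, 113 (75.3%) were higher in NT-D IT than in IV-D IT, against 7.81% of all genes, and 102 (68.0%) were higher in NT-LW IT, against 7.17%. Lower values were found for 2 members in NT-D IT (12.7% of all genes) and 4 in NT-LW IT (11.3%). In both clone groups 93 were higher, a joint count not made over all genes. On the log2 scale NT-D IT was nearer to IV-D TE than to IV-D IT for 112 members, and NT-LW IT for 95. This was not counted over all genes. The choice of members also set the IV-D values of TE and IT apart, so these 2 counts are a description. Both comparisons share the IV-D IT library, and a low value in that library was part of the choice.

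TE differed less, and in the other direction. Of 150 members, 38 (25.3%) were lower in NT-D TE than in IV-D TE, against 3.28% of all genes, and 71 (47.3%) were lower in NT-LW TE, against 8.03%. In both groups 34 were lower, and 75 were lower in neither, joint counts not made over all genes. Higher values were found for 6 members in NT-D TE (2.43% of all genes were higher) and for 6 in NT-LW TE (4.92%), and 0 were higher in both. The median difference to IV-D TE was -0.37 for NT-D and -0.95 for NT-LW on the log2(FPKM + 1) scale, against -0.01 and -0.07 over all genes. A high value in the IV-D TE library, which both comparisons share, was a condition for membership.

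**Figure D2:**
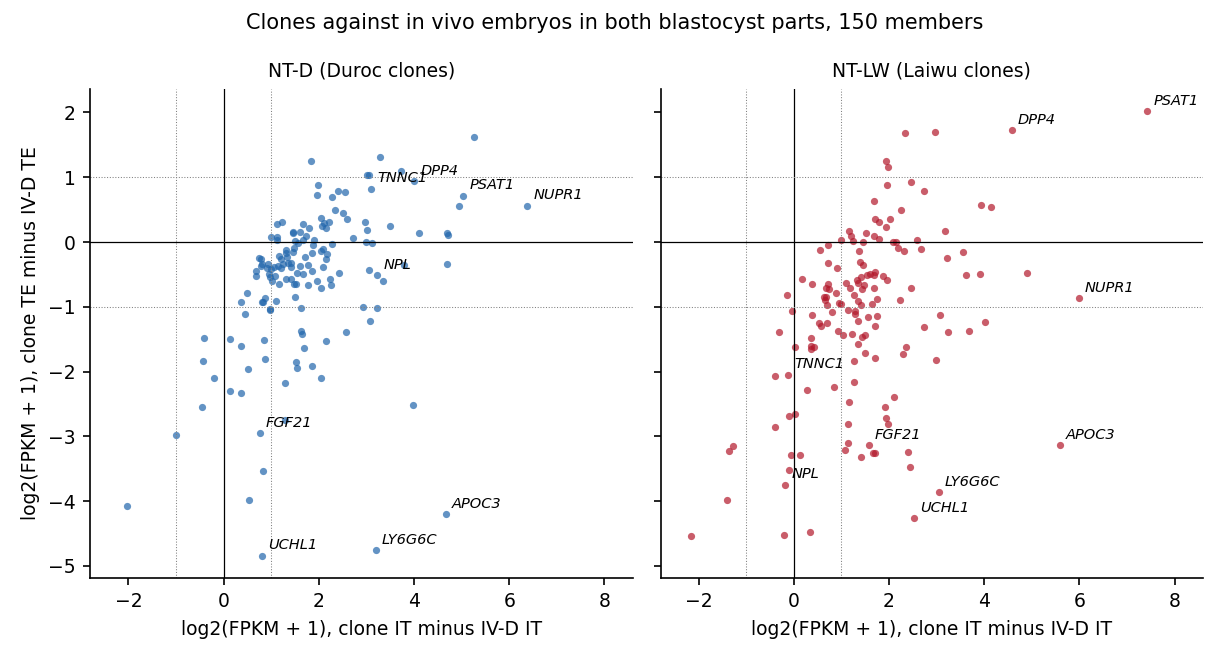
Each point is 1 of the 150 members, with clone IT minus IV-D IT on the horizontal axis and clone TE minus IV-D TE on the vertical axis, both as differences of log2(FPKM + 1). Dotted lines mark a difference of 1. Most points lie right of 0 in both clone groups, and more points lie below -1 on the vertical axis in NT-LW (71) than in NT-D (38).

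Genes chosen by the mirrored limits are given for comparison. The 148 genes with 10 FPKM or more in IV-D IT, 3 times the TE value or more, and less than 10 at the 8-cell stage were lower in clone IT for 132 genes in NT-D and 116 in NT-LW, against 12.7% and 11.3% of all genes. Their choice required a high IV-D IT value, so this is a description and no independent result. Their median FPKM value was 17.2 in IV-D IT, 3.90 in NT-D IT and 5.19 in NT-LW IT. The ICM and epiblast list had a summed FPKM value of 558 in IV-D IT, 96.9 in NT-D IT and 182 in NT-LW IT, and of 16.1 to 27.7 in the 3 TE libraries. The level of ICM genes in IT was thus lower in clones than in IV-D, while the median of the members in IT was higher. A link between them was not tested. In pooled embryo parts fewer cells of a type and less RNA per cell cannot be told apart.

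Fibroblast markers were low in the blastocyst libraries, and markers of other cell types varied. The 4 fibroblast genes in the table, COL1A1 and COL1A2 among them, had a summed FPKM value of at most 0.2 in each IT and TE library, and COL1A1 was at or under 0.04. Of the cumulus cell list HAS2 and GREM1 were under 0.1, and VCAN had values of 13.2 to 17.1, about the same in every blastocyst library. The single gene of the leukocyte and blood list, HBB, had FPKM values of 10.9 in NT-D IT and 21.3 in NT-LW IT, and of 1.80 in IV-D IT and 0.00 to 2.29 in TE. The 9 hypoblast genes had a summed FPKM value of 55.8 in IV-D IT, 49.5 in NT-D IT and 57.4 in NT-LW IT. In TE it was 36.7, 40.6 and 53.1 in the same order. Against IV-D IT, 2 of them were higher and 1 lower in each clone group. Of all genes 7.81% and 7.17% were higher, and 12.7% and 11.3% lower, in NT-D and NT-LW. The lower gene was PDGFRA, at 11.6 in IV-D IT, at 1.66 and 2.22 in clone IT, and under 0.2 in TE.

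Across development the members that were low in early embryos had low medians in the 3 groups up to the 8-cell stage, and the medians lay further apart at the morula. The median FPKM value of the 107 members was 0.23 in IV-D oocytes and 1.44, 1.01 and 1.76 in 8-cell embryos of IV-D, NT-D and NT-LW. In morulae it was 1.81, 4.39 and 3.72. Over all 150 members, 29 were higher and 11 lower in NT-D than in IV-D 8-cell embryos, against 9.38% and 15.1% of all genes, and 46 were higher and 11 lower in NT-LW, against 14.5% and 15.3%. A value under 10 in the IV-D 8-cell library was part of the choice. Of all 150 members, 54 (36.0%) were higher in NT-D than in IV-D morulae, against 17.1% of all genes, and 39 (26.0%) in NT-LW morulae, against 10%. Lower in the same order were 2 and 9 members, against 3.55% and 3.50% of all genes. With median-ratio scaling 42 and 31 members were higher, and 968 and 467 of all 8603 genes. Between 8-cell embryo and morula, 65 members had higher values in NT-D, 27 in NT-LW and 29 in IV-D, where 29.3%, 20.1% and 10.5% of all genes did. With median-ratio scaling the NT-LW step had 18 members higher and 19 lower, against 1146 and 1343 of all 8603 genes. Without this scaling they were 27 and 17, and 11.1% of all genes were lower.

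From the morula to TE, 146 members were higher in IV-D embryos, against 10% of all genes, in part by the choice of members. The step was also large in clones, where 95 members (63.3%) were higher in NT-D TE than in NT-D morulae, against 7.89%, and 84 (56.0%) in NT-LW, against 7.54%. The counts for the step from morula to IT are also set in part by the choice in IV-D embryos, where the IT value had to be low against TE. In IV-D embryos 40 members were higher in IT than in the morula, against 6.39%, and 106 were within the fold of the morula. In NT-D embryos 83 were higher in IT (8.51% of all genes), and in NT-LW embryos 90 (7.83%). The median of all genes moved as well between morula and TE, by -0.27 in IV-D, -0.63 in NT-D and -0.62 in NT-LW. The count of members higher in clone TE was therefore larger after median-ratio scaling, at 117 in NT-D and 105 in NT-LW. The count over all 8603 genes was larger too, at 1486 and 1320.

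**Figure D3:**
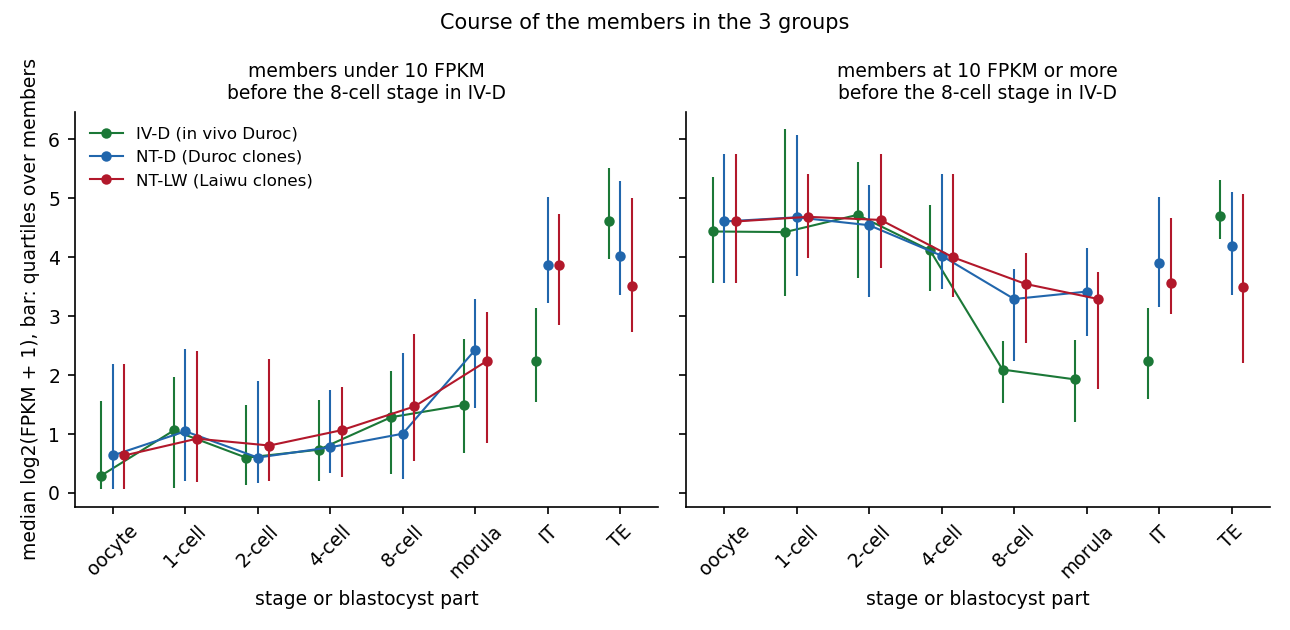
Median log2(FPKM + 1) over members at each stage and in IT and TE, with bars from the lower to the upper quartile over members, for the 107 members under 10 FPKM before the 8-cell stage in IV-D (left) and the 43 at 10 or more (right). The groups overlap up to the 8-cell stage on the left. The IV-D value is below both clone values in morula and IT and above both in TE.

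The 43 members with an early level had a median FPKM value of 20.7 in IV-D oocytes and 23.4 in the recipient oocytes of hybrid sows. At the 8-cell stage it was 3.27 in IV-D, where the choice of members set it, 8.78 for NT-D and 10.7 for NT-LW. UCHL1 was at 2.32 in IV-D 8-cell embryos and at 52.9 and 101 in NT-D and NT-LW 8-cell embryos. In morulae it was at 1.30, 158 and 35.6. PSPH had 8-cell values of 1.54, 13.7 and 36.1 and morula values of 0.80, 43.3 and 13.3. Both genes thus had values above 10 at these stages in clones, where they were under 10 in IV-D embryos. From 8-cell embryo to morula both rose in NT-D and fell in NT-LW. At the 8-cell stage 22 members of NT-D and 30 of NT-LW had 10 FPKM or more. Under 10 were 128 and 120 of the 150 members, and 5185 and 5043 of the 8603 genes.

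Expression began at different stages within the set. An FPKM value of at least 1, the limit for an expressed gene, was first reached in the blastocyst by 18 members in IV-D, 13 in NT-D and 22 in NT-LW (12%, 8.67% and 14.7%, against 1.2%, 0.6% and 1.2% of all genes). In all 3 groups 9 members (6%) were first expressed there, against 0.232% of all genes. Among them were the myosin light chain MYL3, the cardiac troponin TNNC1 and the ligand WNT6, chosen after their values were seen. The highest value of the group was in TE for 123 members in IV-D embryos, 76 in NT-D and 49 in NT-LW, and in IT for 0, 31 and 47. Over all genes the highest value was in TE for 13.1%, 10.4% and 8.09%, and in IT for 12.4%, 7.82% and 10.4%. The IV-D counts are largely set by the choice of members.

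**Figure D4:**
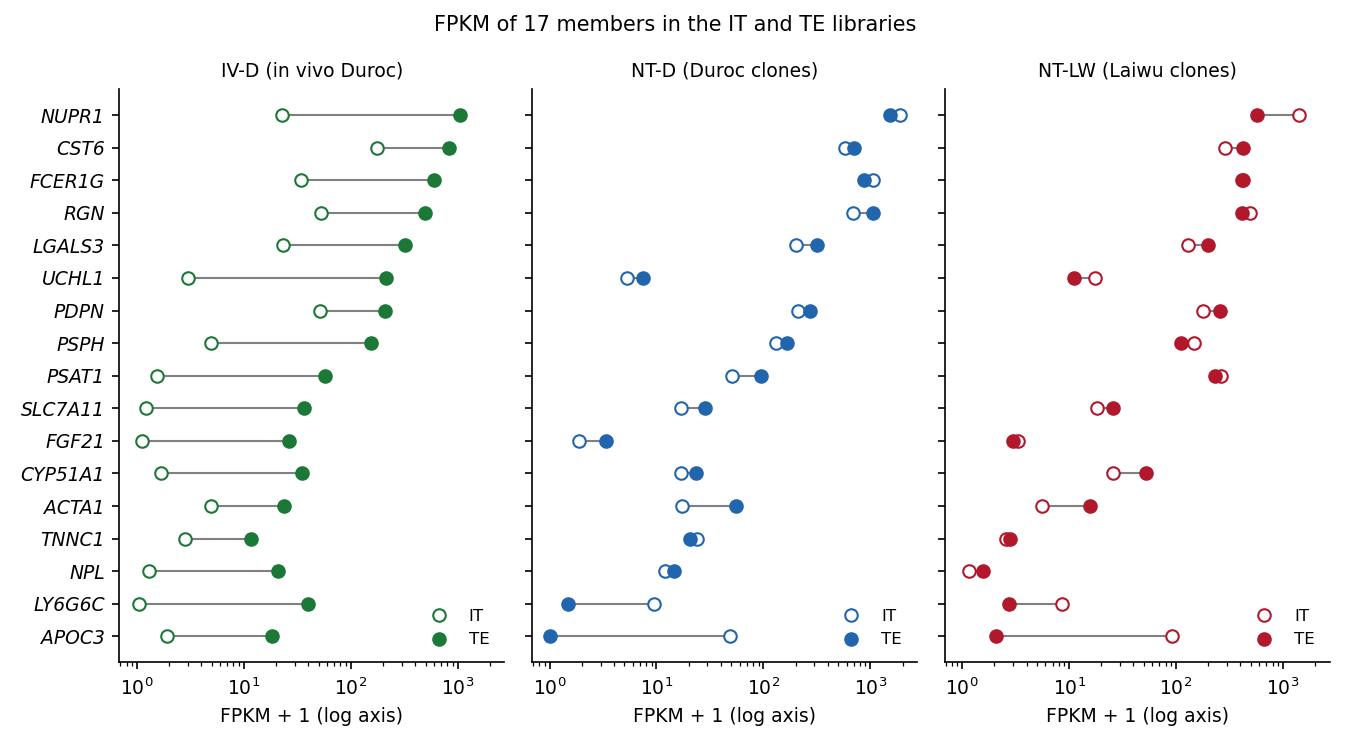
FPKM + 1 on a log axis in IT (open circles) and TE (filled circles) of 17 members, one panel per group, 1 library per point. In IV-D embryos TE lies right of IT for every gene by choice. In clones the paired points lie close together for most genes. IT lies right of TE in both clone groups for LY6G6C and APOC3, by more than the fold in each, and for NUPR1. Some further genes have IT right of TE in a single clone group.

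Among the 12 members highest in IV-D TE, NUPR1 came first. NUPR1, a small nuclear protein induced by nutrient and endoplasmic reticulum stress, had FPKM values of 21.5 in IV-D IT and 1042 in IV-D TE. Its values in clone IT were 1877 in NT-D and 1424 in NT-LW, and those in clone TE were 1537 and 570. The ratio TE over IT was 0.819 (0.805 to 0.833) in NT-D and 0.400 (0.391 to 0.410) in NT-LW, so NUPR1 was higher in the ICM-containing part of clones than in their TE. In morulae it had already reached 100 in NT-D and 31.6 in NT-LW, against 4.47 in IV-D. The gene lies at chr3:18402781-18404411 of Sscrofa11.1.

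CST6, the cysteine protease inhibitor cystatin M, kept the direction seen in vivo but not its size. Its FPKM values in IT and TE were 175 and 824 in IV-D, 576 and 698 in NT-D, and 286 and 418 in NT-LW. LGALS3, a galectin that binds sugars of surface proteins, had 22.4 and 323 in IV-D, 201 and 319 in NT-D, and 129 and 197 in NT-LW. For both genes TE lay above IT in each group, with clone ratios of 1.21 to 1.58.

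FCER1G and RGN were abundant in both parts of the cloned blastocyst. FCER1G, the signalling chain shared by Fc receptors, had FPKM values of 33.0 in IT and 601 in TE of IV-D, 1049 and 880 in NT-D, and 417 and 420 in NT-LW. It was also listed at 37.0 in the IV-D 2-cell library, with no more than 1.55 in the other IV-D libraries before the blastocyst. RGN, the calcium-binding protein regucalcin, had 51.5 and 490 in IV-D, 690 and 1047 in NT-D, and 487 and 415 in NT-LW, with a ratio TE over IT of 1.52 (1.496 to 1.54) in NT-D and 0.853 (0.837 to 0.870) in NT-LW. NT-D TE exceeded IV-D TE for RGN by 1.09 on the log2(FPKM + 1) scale, and NT-LW TE lay 0.24 below it.

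PDPN and PLA2G10 showed the same narrow ratio. PDPN, the mucin-type membrane protein podoplanin, was at 50.4 and 208 in IT and TE of IV-D, 211 and 270 in NT-D, and 176 and 257 in NT-LW. PLA2G10, a secreted phospholipase, was at 56.2 and 179 in IV-D, 199 and 208 in NT-D, and 93.8 and 142 in NT-LW. The remaining abundant members with a symbol were lower in clone TE than in IV-D TE. RARRES2, the chemoattractant chemerin, had 98.7 in IV-D TE against 37.1 and 29.0 in clone TE, and the tetraspanin TSPAN13 had 83.3 against 28.9 and 34.5.

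UCHL1 had the lowest mean difference of clone TE to IV-D TE among members with a symbol. Its FPKM value of 215 in IV-D TE compared with 6.51 in NT-D TE and 10.2 in NT-LW TE, a mean log2 difference of -4.55 over both clone groups. IT held 2.03 in IV-D, 4.25 in NT-D and 16.4 in NT-LW. The gene lies at chr8:32353766-32367288. IV-D embryos were low in this transcript at the 8-cell and morula stages and had it again in TE. Clone values were higher than IV-D at the 8-cell and morula stages and low in both parts of the blastocyst. In NT-D UCHL1 rose from 52.9 in 8-cell embryos to 158 in morulae. Whether earlier transcripts persisted in clones or new ones were made was not tested.

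A large group of members belonged to serine, glycine and proline synthesis and the response to amino acid shortage, in which the factor ATF4 binds a C/EBP-ATF response element and switches on transporters, synthetases and biosynthetic enzymes. The list for this response was written after the members were known, so its counts describe the set and are no independent evidence. Of its 26 measured genes 9 were members, which the choice fixed as higher in IV-D TE. With these, 18 were higher in IV-D TE than in IT, against 8.10% of all genes, with a median difference of 1.78. In NT-D blastocysts 1 was higher in TE and 0 lower, against 0.302% and 3.39% of all genes, with a median of 0.51. In NT-LW blastocysts 1 was higher and 1 lower, against 0.930% and 4.01%. The NT-LW median was -0.06, and 0.22 after median-ratio scaling. In clone IT 15 (NT-D) and 17 (NT-LW) of the 26 were higher than in IV-D IT, against 7.81% and 7.17% of all genes, and the members among them had been chosen for a low value there.

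The 3 enzymes of serine synthesis were all members. PHGDH, the first of them, had FPKM values of 2.76 in IT and 16.2 in TE of IV-D, 13.6 and 27.5 in NT-D, and 13.3 and 19.2 in NT-LW. PSAT1, the next, had 0.548 and 56.4 in IV-D, 49.6 and 93.2 in NT-D, and 265 and 232 in NT-LW. PSAT1 in NT-LW IT thus stood 7.42 above IV-D IT on the log2(FPKM + 1) scale. PSPH, the last, was at 3.95 and 155, 129 and 166, and 147 and 110. The largest clone ratio TE over IT of the 3 was 2.01, that of PHGDH in NT-D. The IV-D ratios were 5.89 for PHGDH, 103 for PSAT1 and 39.2 for PSPH.

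Among the transporter and signal genes of this response SLC7A11 came near its in vivo TE level in clones and FGF21 did not. SLC7A11, the cystine and glutamate exchanger, had FPKM values of 0.219 and 35.4 in IT and TE of IV-D, 15.9 and 27.4 in NT-D, and 17.3 and 24.8 in NT-LW. CHAC1, which degrades glutathione, had 1.48 and 15.5, 6.84 and 10.7, and 6.28 and 6.38. FGF21, a hormone-like growth factor secreted under nutrient stress, had 0.114 (2 fragments) and 25.3 in IV-D, 0.884 and 2.40 in NT-D, and 2.31 and 1.998 in NT-LW. Its ratio TE over IT was 222 in IV-D, with an interval of 61.1 to 1845 that the 2 fragments leave wide, 2.72 (1.48 to 5.19) in NT-D, and 0.866 (0.533 to 1.39) in NT-LW. FGF21 was therefore a transcript of IV-D TE at a level that no clone library reached.

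Promoter windows from 250 bases before to 50 bases after the annotated start were read from the RefSeq genome and annotation of Sscrofa11.1 for 111 members. The C/EBP-ATF response element was searched as TGATGNAA on both strands, a search added after the data were seen. It was found in 5 of the 111 windows (4.50%), against 2.08% of 6811 windows of genes in the table and 2.79% of 19506 windows in all. The 5 genes were FGF21, SLC7A11, CHAC1, EPB41 and PPP1R21. The 100 bases of each window around or next to the element are shown because 3 of these genes are targets of the amino acid response by textbook knowledge. They are given 5′ to 3′ on the strand of the gene with the element in capitals. A match is a description of the sequence and not evidence of binding.
FGF21, chr6:54082416-54082515, plus strand: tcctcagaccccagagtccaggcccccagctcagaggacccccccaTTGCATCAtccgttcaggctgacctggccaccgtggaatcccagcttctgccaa
SLC7A11, chr8:88607983-88608082, plus strand: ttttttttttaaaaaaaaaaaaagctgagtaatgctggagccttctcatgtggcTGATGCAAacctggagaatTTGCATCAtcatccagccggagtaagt
CHAC1, chr1:130363444-130363543, minus strand: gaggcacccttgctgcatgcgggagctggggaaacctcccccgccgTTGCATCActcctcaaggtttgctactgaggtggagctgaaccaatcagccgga
EPB41, chr6:85842288-85842387, plus strand: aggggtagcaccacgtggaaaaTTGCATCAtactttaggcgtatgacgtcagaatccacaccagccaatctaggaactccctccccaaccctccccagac
PPP1R21, chr3:92227870-92227969, minus strand: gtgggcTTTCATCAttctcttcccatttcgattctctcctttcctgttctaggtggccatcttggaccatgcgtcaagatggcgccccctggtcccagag
SLC7A11 held 2 elements, 1 on each strand, close to its start, and the other genes held 1 each. In clone TE SLC7A11 lay 0.36 and 0.50 below IV-D TE, in NT-D and NT-LW on the log2(FPKM + 1) scale. FGF21 lay 2.95 and 3.13 below it in the same order, and a link of these values to the element was not tested. Shares of the other motifs lay above and below those of the table, and none of these differences was tested. The TEAD motif GGAATG was in 13.5% of member windows and 10.9% of table windows, the GATA motif AGATAA in 7.21% and 7.75%, the AP-1 motif TGANTCA in 7.21% and 4.51%, the ETS motifs CCGGAA in 17.1% and 25.7% and AGGAAG in 29.7% and 30.5%, the KLF motif GGGNGG in 88.3% and 84.1%, and the E-box CACGTG in 10.8% and 10.2%. The E-box search was also added after the data were seen.

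Sterol synthesis supplied another group, again by a list written with the members known. Of its 18 measured genes 5 were members, which the choice fixed as higher in IV-D TE. With these, 11 were higher in IV-D TE than in IT, against 8.10% of all genes, with a median of 1.59. In NT-D blastocysts 0 were higher in TE and 1 was lower, against 0.302% and 3.39% of all genes. In NT-LW blastocysts 4 were higher and 0 lower, against 0.930% and 4.01%. The medians were 0.29 in NT-D and 0.76 in NT-LW. With median-ratio scaling 10 were higher in NT-LW TE, with a median of 1.06, and still 0 in NT-D. Of all 8603 genes 216 and 35 were then higher in the same order. This was the group with the largest median TE minus IT in NT-LW among those 5 lists written with the members known. Of the 18 genes 11 (NT-D) and 10 (NT-LW) were higher in clone IT than in IV-D IT, where 7.81% and 7.17% of all genes were and where the members had been chosen for a low value.

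Values of single members follow. CYP51A1, which removes a methyl group from lanosterol, had FPKM values of 0.668 in IT and 34.1 in TE of IV-D, 15.9 and 22.2 in NT-D, and 24.5 and 51.3 in NT-LW, and was 1 of 6 members higher in NT-LW TE than IT. SQLE was at 11.3 and 75.1, 53.7 and 62.5, and 58.0 and 106, and HMGCS1 at 6.64 and 24.1, 36.0 and 39.5, and 23.7 and 37.9. NPC1, which exports cholesterol from lysosomes, was at 9.86 and 31.8, 62.7 and 55.3, and 53.7 and 104, and its value in NT-LW TE was 1.68 above that in IV-D TE on the log2 scale.

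**Figure D5:**
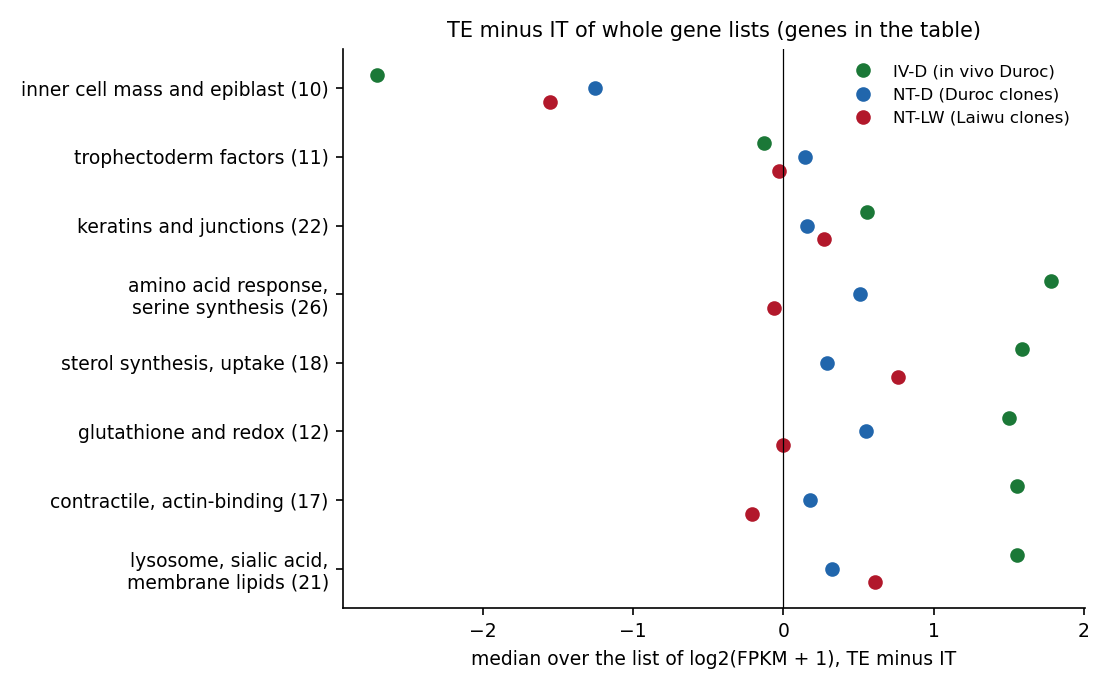
Median over all genes of a list of log2(FPKM + 1) in TE minus that in IT, for 8 lists in the 3 groups. Numbers in parentheses are the genes of the list in the table, members or not, and the lower 5 lists were written after the members were known. The IV-D value of those 5 lists lies between 1.499 and 1.78, and the clone values lie nearer to 0, with NT-LW above NT-D for sterol synthesis and for the lysosome list.

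Lysosomal, sugar and membrane lipid enzymes made up another group, again by a list written with the members known. It held 12 members among its 21 genes in the table. Of the 21, 12 were higher in IV-D TE than in IT, 0 in NT-D and 1 in NT-LW, with medians of 1.56, 0.33 and 0.61. Of all genes 8.10%, 0.302% and 0.930% were higher, and the choice of members fixed the 12 IV-D calls. With median-ratio scaling 6 were higher in NT-LW, against 216 of all 8603 genes, with a median of 0.90. ASAH1, the acid ceramidase, had FPKM values of 15.7 and 76.9 in IT and TE of IV-D, 40.4 and 68.5 in NT-D, and 26.4 and 48.6 in NT-LW. MCOLN2, a lysosomal cation channel, had 8.61 and 42.3, 49.7 and 73.8, and 21.6 and 42.9. Their clone ratios of 1.49 to 1.99 were among the 10 largest mean clone differences of named members.

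NPL differed between the clone groups. This lyase, which breaks down sialic acid, had FPKM values of 11.1 and 13.6 in NT-D and 0.147 and 0.550 in NT-LW, with 0.298 and 19.8 in IV-D. It was thus present in IV-D TE and both parts of the NT-D blastocyst and close to absent in NT-LW blastocysts, where 12 fragments were counted in IT and 37 in TE.

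Contractile and actin-binding proteins were a further group. ACTA1, skeletal muscle actin, was the single member higher in TE in both clone groups and the single one that met all 3 limits in both. Its FPKM values were 3.91 and 22.5 in IT and TE of IV-D, 16.4 and 55.0 in NT-D, and 4.52 and 14.8 in NT-LW, with ratios of 5.76 (4.87 to 6.85), 3.35 (3.08 to 3.65) and 3.27 (2.79 to 3.84). MYL3, a myosin light chain, had 7.33 and 63.5, 33.4 and 57.5, and 29.4 and 43.9. TNNC1, the calcium-binding subunit of troponin, had 1.81 and 10.6 in IV-D, 23.05 and 19.5 in NT-D, and 1.59 and 1.81 in NT-LW. Of the list of 17 genes, also written with the members known, 10 were members, which the choice fixed as higher in IV-D TE. Higher in TE than IT were 13, 1 and 1 genes in IV-D, NT-D and NT-LW, against 8.10%, 0.302% and 0.930% of all genes. After median-ratio scaling the counts were 13, 1 and 2, against 842, 35 and 216 of all 8603 genes.

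Applied to clones, the 3 limits that chose the members were met by 5 genes of the table in NT-D (0.0581%) and 6 in NT-LW (0.0697%), and by 2 members in each. In NT-D these were ACTA1 and CCDC112, and in NT-LW ACTA1 and the unnamed gene ENSSSCG00000024911. Apart from ACTA1, the members with the largest mean clone difference were TINAGL1, CYP2S1, ASAH1, ANXA6, MCOLN2, CYP51A1, PHGDH, WNT6 and NECAB3, with means of 0.66 to 0.99. TINAGL1, a matrix protein, had 3.23 and 6.99 in IT and TE of NT-D and 3.26 and 7.84 in NT-LW, a ratio of 2.41 (1.94 to 2.999) in NT-LW. WNT6 had 0.917 and 11.1 in IV-D, 7.92 and 13.9 in NT-D, and 4.08 and 7.30 in NT-LW. CYP2S1, a cytochrome P450, had 3.98 and 16.2, 18.6 and 30.5, and 18.5 and 37.5.

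A set of 3 members was inverted in both clone groups, with more in IT than in TE by more than the fold. APOC3, an apolipoprotein of triglyceride-rich particles, had FPKM values of 0.916 in IT and 17.4 in TE of IV-D, 47.7 and 0.00 in NT-D, and 91.0 and 1.09 in NT-LW. In NT-D TE 0 fragments were counted, which allows up to 3, so IT was at least 167-fold higher. In NT-LW the ratio TE over IT was 0.012 (0.00637 to 0.0206). LY6G6C, a small membrane-anchored protein of the Ly6 family, had 0.0492 (2 fragments) and 39.2 in IV-D, 8.58 and 0.490 in NT-D, and 7.66 and 1.76 in NT-LW. The third was the unnamed gene ENSSSCG00000028322, with 0.799 and 10.2, 5.51 and 1.99, and 2.77 and 0.210. APOC3 lies at chr9:44211171-44213538 and LY6G6C at chr7:23829790-23833610.

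CDKN1A, the p53-induced inhibitor of the cell cycle, leaned to IT beyond counting error in NT-LW alone. Its ratio TE over IT was 0.819 (0.630 to 1.06) in NT-D, an interval that includes equal levels. In NT-LW it was 0.386 (0.271 to 0.542). CDKN1A had FPKM values of 3.70 and 15.0 in IT and TE of IV-D, 16.0 and 13.1 in NT-D, and 14.2 and 5.50 in NT-LW. Clone morulae had 33.2 and 33.5, against 0.601 in IV-D morulae. The other members with the smallest clone differences were WFDC1, NUPR1, PAGE4, MAP1LC3A, CFAP300, COPZ2 and RASA2, with means of -1.14 to -0.51. For WFDC1, MAP1LC3A and CFAP300 the NT-LW value set the mean. MAP1LC3A, a protein of autophagosomes, had 18.3 and 27.7 in IT and TE of NT-D and 15.4 and 3.25 in NT-LW.

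The members furthest below the in vivo level in clone TE, after UCHL1, LY6G6C, APOC3 and FGF21, were PPP1R27, SYCE3, METTL27 and BDH2, with mean log2 differences of -3.32 to -2.70. PPP1R27, a regulatory protein of phosphatase 1, had FPKM values of 30.2 in IV-D TE and 1.68 and 2.64 in clone TE. SYCE3, a protein of the synaptonemal complex, had 24.0 against 4.54 and 1.55. The members highest in clone TE against IV-D TE were PSAT1, DPP4, NPC1, SLC66A3, CYP2S1, IKBIP, HMGCS1 and PHGDH, with means of 0.48 to 1.37. DPP4, a surface peptidase, had 42.9 in IV-D TE, 83.3 in NT-D TE and 144 in NT-LW TE. Of these 8 genes PHGDH and PSAT1 make serine, and HMGCS1 and NPC1 belong to sterol synthesis and transport.

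The glutathione list was also written with the members known. Its members had been chosen for a high IV-D TE value, so lower clone TE values are in part set by the choice. The list of 12 genes in the table held 5 members, SLC7A11, CHAC1, SRXN1, GCLM and ME1, and 5 genes in NT-D TE and 4 in NT-LW TE were lower than in IV-D TE, against 3.28% and 8.03% of all genes, with 0 higher in each and medians of -0.81 and -0.92. With median-ratio scaling 5 and 2 were lower, against 261 and 498 of all 8603 genes. SRXN1, which reduces oxidized peroxiredoxins, had FPKM values of 0.575 and 14.1 in IT and TE of IV-D, 1.86 and 3.32 in NT-D, and 2.47 and 1.15 in NT-LW. GCLM, a subunit of the enzyme that starts glutathione synthesis, had 5.75 and 23.1, 8.23 and 10.2, and 10.8 and 10.3. Clones and IV-D embryos were kept in different surroundings, culture medium and uterus, so the treatment and the group cannot be told apart.

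The donor breed was compared between the clone groups alone. In TE 42 members (28.0%) were lower in NT-LW than in NT-D, against 5.30% of all genes, and 7 were higher, against 3.57%. After median-ratio scaling 33 were lower and 12 higher, against 331 and 430 of all 8603 genes. In IT 22 (14.7%) were lower, against 2.16%, and 4 were higher, against 2.03%, which is near the background. In both parts 15 members were lower in NT-LW and 1, PSAT1, was higher, joint counts not made over all genes. The widest gap among the 15 was that of the unnamed gene ENSSSCG00000006745, with FPKM values of 27.1 and 33.9 in IT and TE of NT-D and 0.423 and 0.375 in NT-LW, followed by NPL and TNNC1 (these 3 were singled out after their values were seen). Breed, donor animal and cell line are one and the same here and cannot be told apart.

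Agreement between the clone groups was weak member by member. Across the 150 members Spearman's rho between TE minus IT of NT-D and of NT-LW was 0.28, and across all 8603 genes it was 0.21. Between IV-D and NT-D it was 0.12 across the members. Genes are not independent replicates, each value rests on 1 library, and the range within clones was small, so these are descriptions.

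The remaining lists held 1 or 0 members each apart from the stress and p53 list with 2. APOC3 was the member of the lipid uptake list and CHAC1 and CDKN1A those of the stress list. FDX1, the ferredoxin that feeds electrons to steroid-making enzymes, was that of the steroid and signal list, with FPKM values of 8.18 and 39.1 in IT and TE of IV-D, 33.4 and 39.9 in NT-D, and 28.4 and 27.2 in NT-LW. Of 22 measured keratin and junction genes 8 were higher in IV-D TE than in IT and 0 in either clone group. Of all genes 8.10% were higher in IV-D, 0.302% in NT-D and 0.930% in NT-LW. After median-ratio scaling 4 of the 22 were higher in NT-LW, against 216 of all 8603 genes. The median TE minus IT of the endocytosis list (16 genes) was 0.62, 0.16 and 0.57 in IV-D, NT-D and NT-LW, that of lipid uptake (12 genes) -0.09, -0.74 and -0.36, that of the stress list (14 genes) 0.89, 0.03 and -0.28, and that of the steroid and signal list (7 genes) 0.18, 0.10 and -0.12, the last of which was 0.11 after median-ratio scaling. The lists of ion and water transport, YAP and TEAD targets, hypoblast, fibroblast, cumulus, blood and oviduct genes had 0 members. For ion and water transport (7 genes) the medians were -0.45, -0.12 and -0.25, for YAP and TEAD targets (7 genes) -0.33, -0.14 and 0.31, and for hypoblast genes (9 genes) -0.33, -0.26 and -0.09. Of the 2 oviduct and uterine genes in the table, PGR was under 0.4 in each blastocyst library and MSX1 was at 3.62 in IV-D IT and at or under 0.21 in the other 5.

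Genes close to the limits of the choice had like values on both sides. Just inside the TE limit were AMMECR1 with an FPKM value of 10.1 and ENSSSCG00000028322 with 10.2, and just outside were PBLD with 9.96 and MEP1B with 9.92. At the ratio limit YPEL3 (24.0 against 7.998 in IT) and CERT1 (30.8 against 10.3) were inside, and CNDP1 (66.1 against 22.2) and GDPD2 (12.1 against 4.05) were outside. At the 8-cell limit NABP1 with 9.49 and CORO1C with 9.39 were inside, and S100A11 with 10.1 and NAAA with 10.1 were outside. S100A11, a calcium-binding protein with 37.7 in IT and 799 in TE of IV-D, was high in IV-D TE like the most abundant members and was left out by its 8-cell value alone. Of 112 members with a position in the annotation, 2 lay on the X chromosome (1.79%), against 3.79% of 6910 genes of the table. RGN was among them. Clones were all male and IV-D pools held both sexes, so sex and group cannot be told apart for such genes.

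Leaving out the 43 members with an early level, a comparison added after the data were seen, gave like shares. Of the 107 remaining members 2 were higher in TE than IT in NT-D and 5 in NT-LW, 82 and 72 were higher in clone IT than in IV-D IT, and 27 and 51 were lower in clone TE than in IV-D TE. The shares of all genes were 0.302%, 0.930%, 7.81%, 7.17%, 3.28% and 8.03% in the same order. The 89 genes with the same TE limits but an 8-cell value of 10 or more gave like numbers, with 2 and 1 higher in clone TE than IT and 75 and 69 higher in clone IT than in IV-D IT. A ratio near 1 between the parts of cloned blastocysts was thus also found in genes above the 8-cell limit.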

How the data were processed

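RNA of pooled porcine oocytes, embryos and blastocyst parts was measured in 23 libraries, 1 per condition. cDNA was amplified by SMART-Seq v4. Per the submitters' processing notes HISAT2 2.0.4, HTSeq 0.9.1 and the build Sscrofa11.1 were used, and the authors deposited FPKM values of 8603 genes, by the table's name differentially expressed ones. How these were chosen is not given in the sources used here, so shares are shares of the table. Donor cells and added replicates were not analysed here.

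The spacing of FPKM values gave whole fragments for 8603 of 8603 genes and depths of 14952784 to 22991067 fragments and the recovery was tested on simulated data. A count of 0 allows up to 3 fragments. A gene was counted as higher or lower when 2 libraries lay more than 1 apart in log2(FPKM + 1), with the larger FPKM value at 1 or above. The pseudocount of 1 understates changes of low genes. With 1 library per condition no p-value was computed. Symbols (7371 genes) came from the Ensembl identifiers, and positions and promoter windows from the RefSeq annotation and genome of Sscrofa11.1, the build the authors used.

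The members, gene lists and tests were chosen with earlier results of these data known. Of 19 gene lists, 5 were written after the members were seen. Named genes were members on a list, the 12 highest in IV-D TE, the 10 largest and 10 smallest mean clone differences TE minus IT (FPKM of at least 5 in a clone IT or TE library), the 8 lowest and 8 highest in clone TE against IV-D TE, and the 2 nearest genes on each side of each limit. Others are said to be chosen after their values were seen. Alternatives were a pseudocount of 0.1, a minimum of 5 or none, median-ratio scaling, libraries set to a common sum of 1000000, and other limits. The tools were scipy 1.17.1, numpy 2.4.6, pysam 0.24.0, pandas 2.3.3 and matplotlib 3.10.9 under Python 3.11.15. A few members are not reported here by name.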

Additional observations from a re-analysis of the deposited data

Results flagged for a closer look

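In 5 members the difference TE minus IT, on the log2(FPKM + 1) scale, went past the fold in opposite directions in groups under the same comparison. With 1 library per part and group the differences between groups were not tested. APOC3 had 3.27 in IV-D, -5.61 in NT-D and -5.46 in NT-LW. LY6G6C had 5.26, -2.69 and -1.65 in the same order, and ENSSSCG00000028322 had 2.64, -1.12 and -1.64. In these 3 the IV-D value is high by the choice of members, while the clone values are independent of it. The clone groups differed from each other in ENSSSCG00000024911, with 4.21 in IV-D, -2.29 in NT-D and 3.52 in NT-LW, and in CCDC112, a coiled-coil protein, with 3.53, 1.65 and -1.20. FPKM values of ENSSSCG00000024911 in IT and TE were 32.5 and 5.84 in NT-D and 7.14 and 92.6 in NT-LW. Those of CCDC112 were 3.71 and 13.8 in NT-D and 4.04 and 1.20 in NT-LW.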

How the results depend on the processing

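Over 23 results the alternatives gave 117 values, of which 102 stayed within 1.5 times the reported share and 15 did not. The share of members higher in TE than IT moved in NT-D from 2.0% to 4.0% with a pseudocount of 0.1 and with rescaling to a sum of 1000000, to 3.61% for members chosen with a ratio of 5 and to 1.21% with a ratio of 2. In NT-LW it moved from 4.0% to 10.7% with median-ratio scaling and to 6.02% with a ratio of 5. These shares rest on 3 and 6 members. The share higher in IV-D morulae than 8-cell embryos (19.3%) was 12.7% with a minimum of 5 FPKM and 8.43% with a ratio of 5. The share first expressed in the blastocyst was 21.3% in IV-D and 14.0% in NT-D when 2 FPKM counted as expressed, and 6.0%, 3.33% and 7.33% in IV-D, NT-D and NT-LW at 0.5 FPKM. With TE at least 2 times IT, 2.67% of members in NT-D and 3.33% in NT-LW met the limits, in place of 1.33% in each. The cause of these moves was not tested. The shares higher in clone IT than IV-D IT and lower in clone TE than IV-D TE, and the step from morula to TE, stayed within 1.5 times under each alternative run. No paired analysis was possible because each condition has 1 library, and for the same reason no library could be left out of a group. No interval here covers variation between embryos or cuts.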
